A study of Mus musculus with 5 samples.

Results

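Prostaglandin synthesis by cardiac fibroblasts (CF) was followed here through 7 genes: the phospholipase Pla2g4a, the cyclooxygenases Ptgs1 and Ptgs2, the terminal synthases Ptges, Ptges3 and Ptgis, and the receptor Ptger4. They were picked by name from the 20365 gene names of the deposited tables, which hold 40428 distinct 3′ UTR intervals. Each gene was read on 1 interval, chosen by its mean CPM over the labeled libraries, the highest being taken. Only Ptgs1 offered a choice, between 2 intervals that end 3 bases apart and hold the same reads, and the longer was used, so that the choice changed no read count. Prior results of these data were known when the genes were picked, and the levels of the members and the comparison of Ptgs2 with Ptgs1 are therefore a description.

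CF came from hearts of healthy male wildtype C57Bl/6J mice aged 10–12 weeks, were depleted of CD31+ and CD45+ cells and grown to confluency. In the labeled group, 3 samples of 2 wells each were incubated for 12 h with 0.1 mM 4-thiouridine (S4U), a uridine analog that cells build into new RNA. In the unlabeled group, 2 samples spent the same 12 h in medium without S4U, and the RNA of both groups was alkylated, which makes incorporated S4U read as C. The share of covered T positions read as C is the T>C conversion rate, which rises with the portion of a transcript made during labeling. The study's reporting summary counts 3 CF preparations for SLAMseq. Neither it nor the methods say which preparations the unlabeled samples came from, so the spread between those may be technical.

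Prostaglandins are lipid signals made from arachidonic acid. The cytosolic phospholipase encoded by Pla2g4a frees this fatty acid from membranes, and a cyclooxygenase turns it into prostaglandin H2. Ptgs1 encodes the cyclooxygenase present in many resting cells, whereas Ptgs2 encodes the inducible one, whose mRNA is short-lived in many cell types and carries AU-rich elements with the pentamer ATTTA in its 3′ UTR. Terminal synthases then make prostaglandin E2 (Ptges, and the Hsp90 co-chaperone Ptges3, also described as a cytosolic prostaglandin E synthase) or prostacyclin (Ptgis). Ptger4 encodes the EP4 receptor for prostaglandin E2. In the heart, these mediators are known for effects on vessel tone, inflammation and fibroblast growth.

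With a single interval for each gene, the libraries held 506045–1843033 reads, and labeled replicate 3 was the shallowest. CPM below is relative to these counted reads. The T>C rate of a whole library was 0.0355 ± 0.000264 (SD, n = 3) in labeled samples and 0.00111 and 0.000652 in unlabeled samples 1 and 2. All 9 fibroblast markers had reads in every library and summed to 30840–33736 CPM in labeled and 23797–27617 CPM in unlabeled samples. The 7 macrophage markers summed to 57.7–100.4 CPM in labeled and 60.8–105 CPM in unlabeled samples, and the 6 endothelial markers to 123–224 and 151–226 CPM. Of 6 cardiomyocyte markers, Myl2 had no read in any library, and the list summed to at most 7.03 CPM.

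The 3′ UTRs of the cyclooxygenases differed in their number of ATTTA copies. The Ptgs2 interval (ENSMUSG00000032487.10, chr1:149981534-149983985 on the plus strand of GRCm39) spans 2452 bases, of which the last 7 lie beyond the annotated end of the gene and all others are 3′ UTR. It holds 14 copies of ATTTA on the transcript strand, overlapping copies included, and 11 on the opposite strand. Among 2467 intervals of similar length, the median was 4 copies and 1.13% held at least as many. Of the 14 copies, 7 lie in the first 200 bases after the interval start. The stretches below adjoin each other and are shown because together they hold all 7 of these, 6 within the stretches and 1, in lower case, across their join. They are written 5′ to 3′ from GRCm39 with ATTTA in capitals and cover chr1:149981547-149981576 and chr1:149981577-149981606 on the plus strand.
Ptgs2 stretch 1: atATTTATTTATTTAtgtgaagaATTTAat
Ptgs2 stretch 2: ttaattATTTAatATTTAtactgaattttt
The longer motif TTATTTATT, which contains ATTTA, occurred 1 time in Ptgs2, within the first stretch, in no other member on the transcript strand, and in 11.5% of the intervals of similar length. The Ptgs1 interval (ENSMUSG00000047250.15, chr2:36141364-36142287, plus strand, 924 bases of 3′ UTR) had 0 copies of ATTTA on either strand, whereas 70.3% of 2721 intervals of similar length held at least 1.

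Ptger4 and Pla2g4a also carried ATTTA. The Pla2g4a interval (ENSMUSG00000056220.16, chr1:149705369-149705811, minus strand, 443 bases of 3′ UTR) held 4 copies, or 9.03 per kilobase, a number reached by 2.92% of 2052 intervals of similar length. Pla2g4a and Ptgs2 are neighbors on chromosome 1, 138 kb apart on opposite strands. The Ptger4 interval (ENSMUSG00000039942.17, chr15:5262880-5264112, minus strand, 1233 bases of 3′ UTR) held 5 copies, reached by 13.8% of similar intervals. One stretch of each is shown for comparison with Ptgs2, chr1:149705408-149705437 and chr15:5263390-5263419 on the minus strand, each with 2 copies, which are apart in Pla2g4a and overlap in Ptger4.
Pla2g4a stretch 1: atttttATTTAaatgtttatATTTAcacat
Ptger4 stretch 2: aaaaacattacATTTATTTAtccagaaaac
Ptges3 (ENSMUSG00000071072.14, chr10:127911956-127913123, plus strand, 1168 bases) had 4 copies, which 21.5% of similar intervals reached. Its interval is 3′ UTR in full, 153 of its bases are coding in another isoform, and a gene on the opposite strand, Gm47438, overlaps it. The interval of Ptges (ENSMUSG00000050737.15, chr2:30779483-30782588, minus strand, 3106 bases of 3′ UTR, 8 of them coding in another isoform) had no ATTTA, while 96.3% of 2074 similar intervals had at least 1. The short interval of Ptgis (ENSMUSG00000017969.15, chr2:167045114-167045243, minus strand, 130 bases of 3′ UTR) had none either, and 16.4% of similar intervals had any. The absence of these letters applies to these windows. The polyadenylation signal AATAAA was also searched, and its last copy began 23 to 35 bases before the interval end in 6 members. In Ptges the last AATAAA began 286 bases before the end, and the variant ATTAAA 23 bases before it. Of the intervals similar in length to Ptges, 93.3% held AATAAA and 77.9% ATTAAA, and on the opposite strand of Ptges there were 0 copies of the former and 1 of the latter.

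Transcript levels of the 7 members spanned a wide range. Levels are given as CPM, and between genes also as CPM per kilobase of the interval. Reads come from 3′ ends and need not scale with interval length, so the division places short intervals high. Per kilobase, Ptgis stood first in the labeled samples at 1632 ± 244 (SD, n = 3), followed by Ptges3 at 190.3 ± 28.1 and Ptger4 at 95.2 ± 26.5. Pla2g4a came next at 73.7 ± 10.5, then Ptgs1 at 31.8 ± 4.03, Ptgs2 at 28.2 ± 16.1 and Ptges at 3.09 ± 1.81. Ptger4 and Pla2g4a overlapped in their ranges, and so did Ptgs1 and Ptgs2, whereas the other neighbors in this order did not overlap. Without division by length, the order was Ptges3, Ptgis, Ptger4, Ptgs2, Pla2g4a, Ptgs1 and Ptges. On that scale the 212 ± 31.7 CPM of Ptgis overlapped the 222 ± 32.8 CPM of Ptges3, Ptger4 overlapped Ptgs2, and Pla2g4a overlapped Ptgs1.

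**Figure D1:**
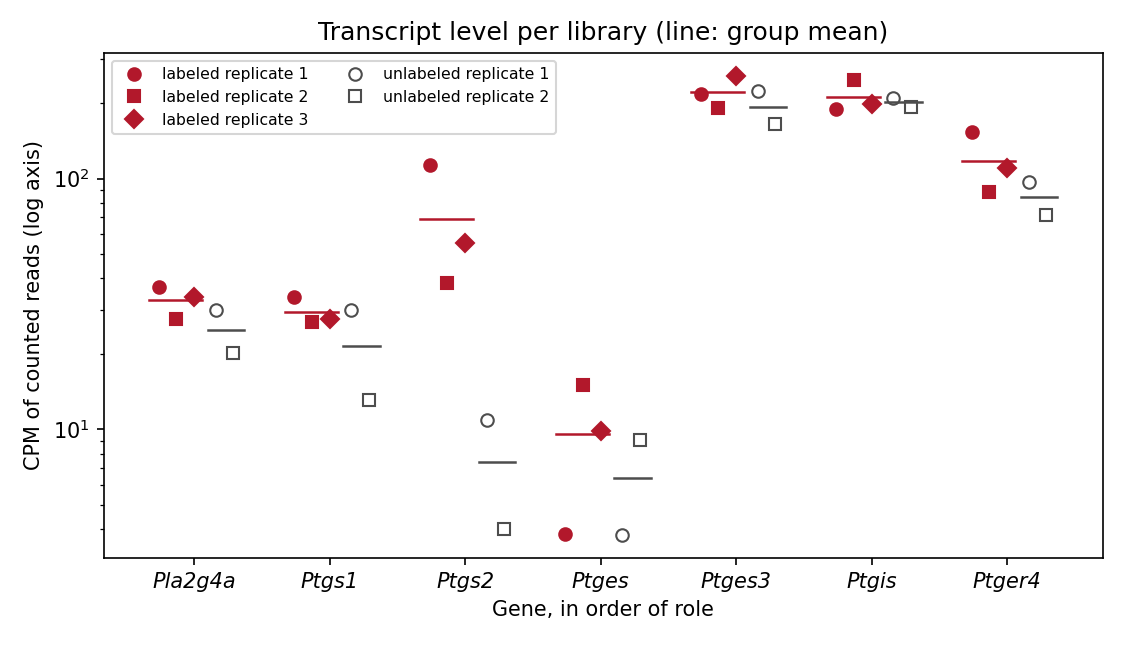
CPM of counted reads (log axis) of each member in every library, with filled symbols for the 3 labeled and open symbols for the 2 unlabeled samples and lines at the group means. Ptgs2 is the member whose labeled samples (38.5–114 CPM) all lie above both unlabeled samples (10.9 and 4.02 CPM).

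Pla2g4a, which supplies the substrate, gave 58, 33 and 17 reads in labeled samples 1, 2 and 3 and 55 and 20 in unlabeled samples 1 and 2. These are 36.8, 27.6 and 33.6 CPM against 29.8 and 20.1 CPM, so that the groups overlapped. In edgeR's quasi-likelihood test over 9807 genes, its log2 fold change was 0.45 (SE 0.33, Benjamini-Hochberg adjusted p = 1.00). Its T>C rate was 0.0532, 0.0461 and 0.0463 in the labeled samples, with 518–1654 covered T positions each, and 0.000604 in unlabeled sample 1. In unlabeled sample 2 no conversion was seen, which allows a rate of up to 0.00518 (3 conversions of the covered T positions, counting error only). The labeled mean of 0.0486 ± 0.00402 (SD, n = 3) was above that of 97.9% of the 2107 intervals, 1 per gene, that had 1000 or more covered T positions in each library, called deep intervals below. Reads with a conversion were 70.7%, 69.7% and 82.4% of its labeled reads.

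Ptgs1 was read at a similar level in nearly all libraries. It had 53, 32 and 14 reads in labeled samples 1, 2 and 3 and 55 and 13 in the unlabeled ones, or 33.6, 26.8 and 27.7 CPM against 29.8 and 13.1 CPM. Unlabeled sample 1 lay within the labeled range and unlabeled sample 2 below it. Its log2 fold change was 0.51 (SE 0.41, edgeR adjusted p = 1.00). The labeled T>C rates of Ptgs1 were 0.0317, 0.0310 and 0.0222, with 23, 17 and 6 conversions of 726, 549 and 270 covered T positions. Unlabeled sample 1 showed 2 conversions, a rate of 0.00256, and unlabeled sample 2 none, which allows up to 0.0133. The mean of 0.0283 ± 0.00527 (SD, n = 3) was the lowest of the members, and 14.0% of the deep intervals had a lower one.

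Ptgs2 was the member with the highest T>C rate and the largest difference in reads. The 179, 46 and 28 reads in labeled samples 1, 2 and 3 stood against 20 and 4 reads in unlabeled samples 1 and 2. Scaled to the counted reads, these are 114, 38.5 and 55.3 CPM against 10.9 and 4.02 CPM. Every labeled sample lay above both unlabeled samples, and labeled sample 1 was far above the other two. The ratio of a labeled to an unlabeled sample was 3.55 at the least and 28.3 at the most over the 6 pairs, and the means of 69.1 ± 39.4 (SD, n = 3) and 7.43 CPM differed 9.30-fold. The log2 fold change of 3.21 (SE 0.63) had rank 4 from the top among 9807 genes. It did not pass edgeR's test (adjusted p = 0.531) but passed in DESeq2 (log2 fold change 3.24, adjusted p = 0.00102).

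The labeled T>C rates of Ptgs2 were 0.0621, 0.0747 and 0.0673, from 256, 84 and 45 conversions of 4122, 1124 and 669 covered T positions. Their 95% Wilson intervals were 0.0551–0.0699, 0.0608–0.0916 and 0.0506–0.0888. Unlabeled sample 1 had 1 conversion of 481 covered T positions, and unlabeled sample 2 had 0 of 100, which allows a rate of up to 0.0300. The mean of 0.0680 ± 0.00635 (SD, n = 3) lay above all 2107 deep intervals, of which the highest reached 0.0646, and their median was 0.0388 (quartiles 0.0343 and 0.0422). With the minimum lowered to 100 covered T positions, a comparison chosen after seeing the data, Ptgs2 had rank 4 among 8290 intervals.

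In Ptgs2, most of the labeled reads carried a conversion. The share of reads with at least 1 was 71.5%, 84.8% and 67.9% in labeled samples 1, 2 and 3. Ptgs1 reads carried one in 30.2%, 31.3% and 28.6%, but they also covered fewer T positions each (13.7–19.3 in the labeled samples). Split in this way, Ptgs2 had 81.2, 32.6 and 37.5 CPM of reads with a conversion and 32.4, 5.86 and 17.8 CPM without. The reads without a conversion overlapped the 10.3 and 4.02 CPM of such reads in the unlabeled samples. For Ptgs1, reads without a conversion came to 23.5, 18.4 and 19.8 CPM against 28.8 and 13.1 CPM, and the groups overlapped.

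**Figure D2:**
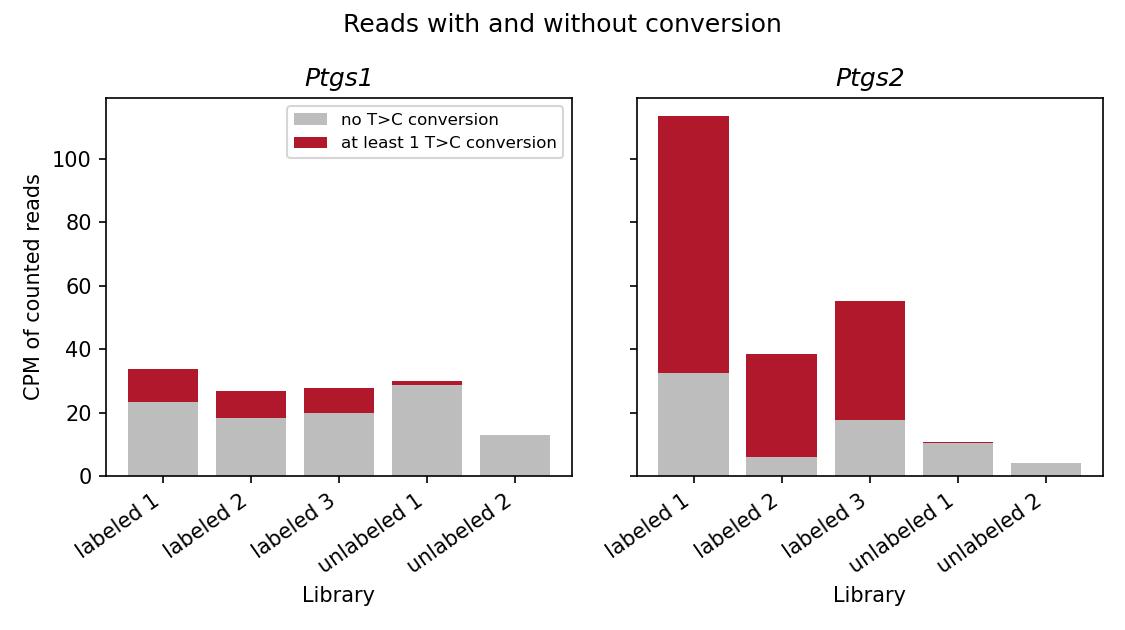
CPM of counted reads of Ptgs1 and Ptgs2 in each library, as bars stacked from reads without a T>C conversion (gray) and reads with at least 1 (red). In Ptgs2 the converted part makes up 67.9–84.8% of the labeled bars, in Ptgs1 28.6–31.3%.

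Set against Ptgs1 within each labeled sample, the Ptgs2 rate was higher by 0.0304, 0.0438 and 0.0450, a mean difference of 0.0397 ± 0.00810 (SD, n = 3). This made the Ptgs2 rate 2.47 ± 0.54 times that of Ptgs1. The Wilson intervals of the 2 genes did not overlap in any labeled sample. They came closest in labeled sample 3, with the upper end of Ptgs1 at 0.0476 and the lower end of Ptgs2 at 0.0506. The intervals treat covered T positions as independent, although a read covers several. They may thus be too narrow and are a description, not a test. The CPM ratio of Ptgs2 to Ptgs1 was 3.38, 1.44 and 2 in the labeled and 0.364 and 0.308 in the unlabeled samples, which put Ptgs2 above Ptgs1 in all 3 labeled samples and below it in both others. On the log2 scale, the mean ratio of CPM was 1.09 ± 0.62 (SD, n = 3) in labeled and −1.58 in unlabeled samples. The direction in the labeled samples depends on the scale. Per kilobase of the interval, the ratios were 1.27, 0.542 and 0.754, and their log2 mean was −0.31. The difference of this ratio between groups is the same on either scale.

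Markers of other cell types were compared beside the difference in Ptgs2. The epicardial and mesothelial list of 5 genes summed to 3.81–7.90 CPM in labeled and 1.63–2.01 CPM in unlabeled samples. In the labeled samples most of the sum was Wt1, at 3.81, 4.18 and 5.93 CPM (6, 5 and 3 reads). In unlabeled samples 1 and 2, Wt1 was at 0.543 and 1.00 CPM (1 read each) and Upk1b at 1.09 and 1.00 CPM. Msln and Krt19 of this list were at 0 in every library. The 6 smooth muscle and pericyte markers summed to 563–1652 and 366–750 CPM, nearly all of it Acta2, and overlapped between groups. Within this list, Cnn1 (10.9–19.8 against 5.97 and 6.02 CPM) and Cspg4 (3.35–5.93 against 1.09 and 1.00 CPM) lay higher in each labeled sample than in both unlabeled ones, as did Wt1 above and as Ptgs2 did. Cspg4 rests on 7, 4 and 3 reads against 2 and 1. Among the 9807 genes in edgeR's test, 8.2% showed this pattern. Of Cnn1, Cspg4 and Wt1, Cnn1 alone had the reads to enter edgeR's test, and it did not pass (log2 fold change 1.35, adjusted p = 0.767). The endothelial markers, whose sums overlapped, went both ways, with Egfl7 higher in each labeled sample (29.2, 38.5 and 35.6 against 16.8 and 26.1 CPM, log2 fold change 0.76, edgeR adjusted p = 0.904) and Cdh5 lower (31.6–51.0 against 55.9 and 52.2 CPM). Among macrophage markers, Adgre1 was lower in each labeled sample (1.98–6.98 against 7.60 and 14.1 CPM). The other macrophage markers overlapped between groups. Of these, Csf1r and Fcgr1 had the higher mean in labeled samples, and the rest had the higher mean in unlabeled samples. Csf1r was at 9.52, 19.2 and 15.8 against 2.17 and 12.05 CPM (log2 fold change 1.22, edgeR adjusted p = 0.984). The sum of the 9 fibroblast markers, given above, was higher in each labeled sample, but its members did not move together. Col1a1, a collagen chain and the most read of them, was at 12755–13293 CPM in labeled and 8784 and 9659 CPM in unlabeled samples. Pdgfra, a receptor that marks CF, was lower in each labeled sample, at 516–525 against 722 and 841 CPM, and so was the collagen receptor Ddr2, at 245–332 against 382 and 453 CPM. The other 6 overlapped between groups. The part of these differences in the Ptgs2 result was not tested. In bulk RNA, fewer cells that express a gene and less of its RNA per cell cannot be told apart.

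Ptges, the inducible prostaglandin E synthase, was the least read of the members. It had 6, 18 and 5 reads in labeled samples 1, 2 and 3 and 7 and 9 in the unlabeled ones, or 3.81, 15.1 and 9.88 CPM against 3.80 and 9.03 CPM. The groups overlapped, and the log2 fold change of 0.68 (SE 0.77, edgeR adjusted p = 1.00) was smaller than its error. Rates of 0.0526, 0.0378 and 0.0636 rest on 4, 13 and 7 conversions, and neither unlabeled sample had one among 130 and 170 covered T positions. The mean of 0.0514 ± 0.0130 (SD, n = 3) was the second highest of the members, with the widest spread.

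Ptges3 and Ptgis were read most. Ptges3 had 344, 229 and 130 reads in labeled samples 1, 2 and 3 and 411 and 164 in the unlabeled ones, which are 218, 192 and 257 CPM against 223 and 165 CPM. Its log2 fold change was 0.28 (SE 0.27, edgeR adjusted p = 1.00). These counts are uncertain, because the tables also list the near-identical copy Ptges3-ps, with 167, 73 and 16 reads in the labeled and 124 and 22 in the unlabeled samples, between 12.3% and 48.5% of the Ptges3 reads. The T>C rate of Ptges3 was 0.0387, 0.0414 and 0.0466, a mean of 0.0422 ± 0.00402 (SD, n = 3), and 74.9% of the deep intervals were lower. Reads with at least 1 conversion made up 55.5%, 59.8% and 69.2% of its labeled reads. In unlabeled sample 1 its rate was 1.02e-04, and unlabeled sample 2 had no conversion, which allows up to 7.49e-04.

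Ptgis gave 300, 297 and 100 reads in the labeled and 386 and 193 in the unlabeled samples. Its 190, 249 and 198 CPM against 209 and 194 CPM made it the member with the smallest log2 fold change, 0.15 (SE 0.24, edgeR adjusted p = 1.00). The prostacyclin synthase transcript had rates of 0.0316, 0.0314 and 0.0262, a mean of 0.0297 ± 0.00308 (SD, n = 3), above 15.5% of the deep intervals. With 1336–4134 covered T positions per labeled sample on only 31 T positions of the interval, this rate comes from few sites of the transcript. Its unlabeled rate was 6.68e-04 in sample 1, and no conversion in sample 2 allows up to 0.00111. The share of its labeled reads with a conversion was 26%, 33.3% and 32%.

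Ptger4, the receptor, had 241, 106 and 56 reads in labeled samples 1, 2 and 3 and 179 and 71 in the unlabeled ones. The levels were 153, 88.7 and 111 CPM against 97.1 and 71.3 CPM, with labeled sample 2 below unlabeled sample 1. Its log2 fold change of 0.56 (SE 0.32) did not pass edgeR's test (adjusted p = 0.955). Its rates of 0.0378, 0.0402 and 0.0427 were close together, with a mean of 0.0402 ± 0.00241 (SD, n = 3), near the middle of the deep intervals, of which 60.9% were lower. A conversion was carried by 53.9%, 48.1% and 51.8% of its labeled reads, about the same share in each sample. Unlabeled sample 1 gave 2.78e-04, and sample 2, without a conversion, allows up to 0.00196.

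**Figure D3:**
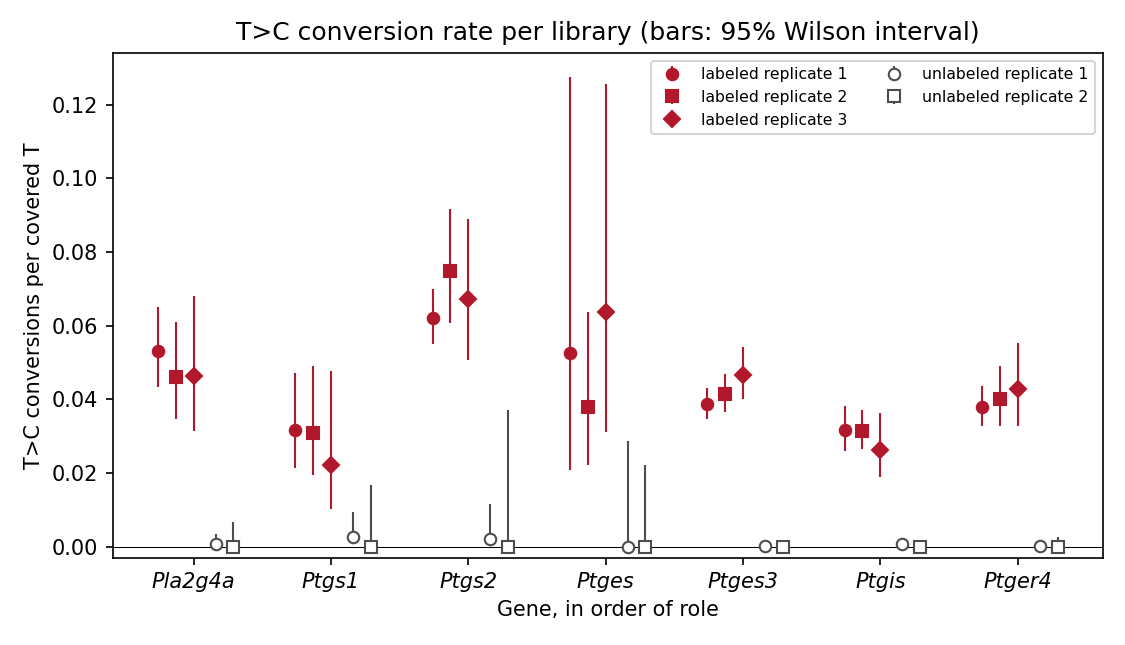
T>C conversions per covered T position of each member in every library, with 95% Wilson intervals that cover counting error only. All labeled points lie between 0.0222 (Ptgs1) and 0.0747 (Ptgs2), and no unlabeled point exceeds 0.00256.

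Ordered by the mean rate, the members ran Ptgs2, Ptges, Pla2g4a, Ptges3, Ptger4, Ptgis and Ptgs1. Neighbors in this order overlapped in their 3 labeled values, except Ptger4, whose values all lay above those of Ptgis. The order by rate thus placed Ptgs1 and Ptgs2 at opposite ends. Ptges and Ptges3 each had a higher rate than the prostacyclin synthase Ptgis in every labeled sample. Ptges2, a further prostaglandin E synthase that is no member, had rates of 0.0432, 0.0370 and 0.0159, the last below Ptgis, on as few as 63 covered T positions in a library.

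**Figure D4:**
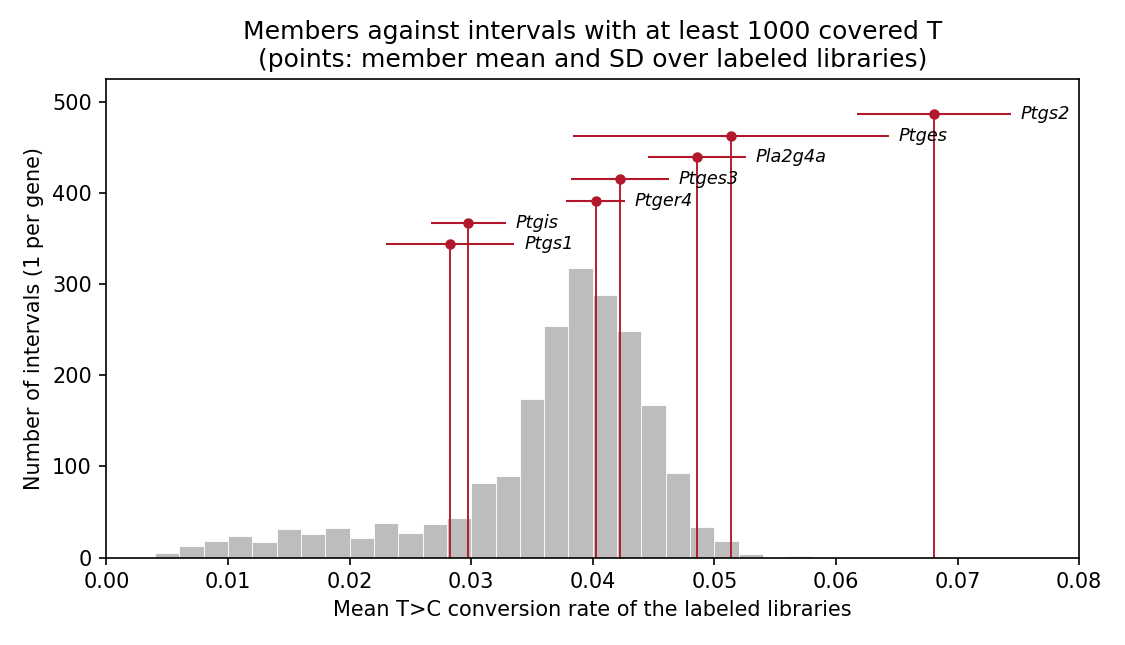
Number of deep intervals (1 per gene, 1000 or more covered T positions in each library) by mean T>C rate of the labeled libraries, with the 7 members as points (mean) and horizontal bars (SD, n = 3). Ptgs2 at 0.0680 lies beyond the highest deep interval at 0.0646, and Ptgs1 and Ptgis lie in the lower tail.

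All 7 members had a higher T>C rate in labeled than in unlabeled samples by the beta-binomial test, at an unadjusted p from 5.39e-07 (Ptges3) to 3.35e-04 (Ptges). The same call was made for 94.6% of the 19240 intervals tested, so the members' count is near the background. In reads, edgeR called 0 of 9807 genes at an adjusted p below 0.05 (0%), and before adjustment 279 genes were higher and 306 lower at a p below 0.05, with Ptgs2 among the former. DESeq2 called 13 genes higher, Ptgs2 included, and 7 lower. Of the members, 1 had every labeled sample above both unlabeled samples, a pattern shown by 8.2% of genes, and 0 had every labeled sample below, as 13.1% of genes did. The log2 fold changes of all 7 members were above 0, with a median of 0.51, and 51.7% of all genes were above 0, with a median of 0.02.

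**Figure D5:**
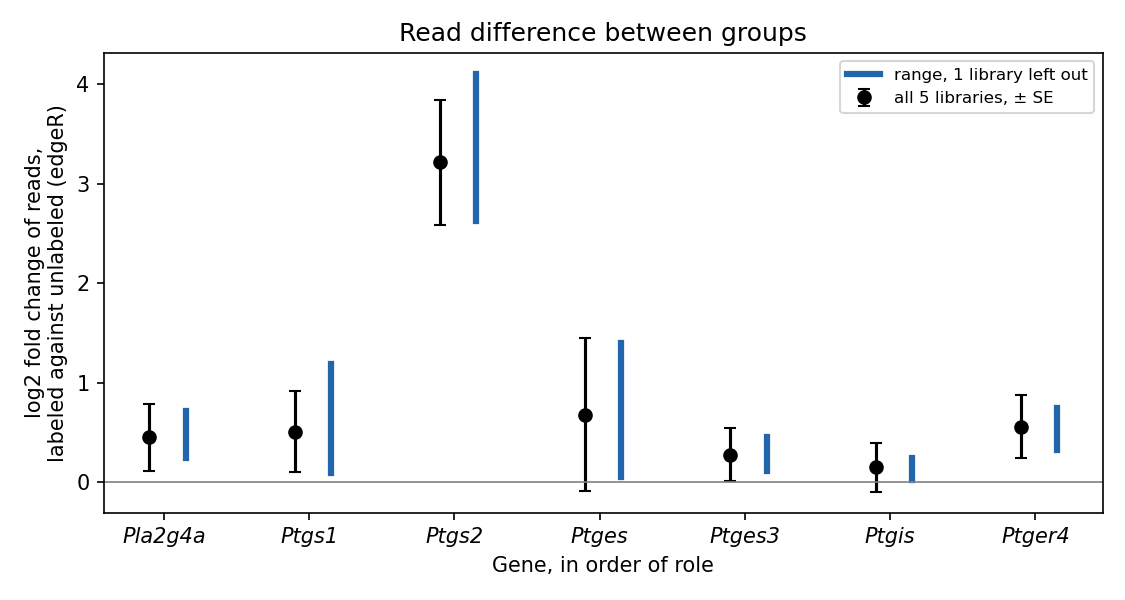
Log2 fold change of reads between labeled and unlabeled samples from edgeR for each member, as points with SE for all 5 libraries and blue bars for the range when any 1 library was left out. Ptgs2 runs from 2.63 to 4.10, and all other members stay below 1.41.

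Leaving out any 1 library kept the Ptgs2 log2 fold change between 2.63 and 4.10, with edgeR adjusted p from 0.353 to 1.00. Ptges moved between 0.06 and 1.41, and Ptgs1 ran from 0.10 to 1.19. Ptgis stayed between 0.03 and 0.24.

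Deep intervals were also grouped by their number of ATTTA copies, as a description across genes, which are not replicates. The median rate was 0.0344 in 434 intervals without a copy, 0.0388 in 784 with up to 2 per kilobase, 0.0400 in 651 with 2 to 4, 0.0407 in 174 with 4 to 6 and 0.0381 in 64 with more than 6. Each member was set against the class of its copies per kilobase, although only Ptges3, Ptgis and Ptger4 are deep and thus counted in one. Members without a copy lay on both sides, Ptgs1 and Ptgis below the median of the class without a copy and Ptges above its upper quartile of 0.0401. Ptgs2, with 5.71 copies per kilobase, stood above the upper quartile of its class (0.0437), and Ptger4, with 4.06, just below the median of the same class. Pla2g4a, with 9.03, was above the upper quartile of the densest class (0.0430), and Ptges3, with 3.42, lay between the median and the upper quartile of its class (0.0429). These classes also differ in length, with medians of 460 bases for intervals without a copy and 2167 for those with up to 2 per kilobase.

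The wider pathway was read from 56 further genes in lists of synthases and carriers, receptors, breakdown enzymes, phospholipases, lipoxygenases, and annexin and Hsp90 partners. Of these, 53 were in the tables, 6 of them without a read in any library, and 31 had reads in every library. Among the 25 that entered edgeR's test, 0 passed at an adjusted p and 0 at an unadjusted p below 0.05 in either direction, and their median log2 fold change was −0.08. Of 31 tested for T>C rate, 30 were called higher in labeled samples, near the 94.6% of all intervals tested. Their labeled rates, over the genes that entered edgeR's test, ran from 0.0246 to 0.0590 with a median of 0.0367, so that none reached Ptgs2.

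In the receptor list of 8 genes, Ptgdr and Ptgdr2, the receptors for prostaglandin D2, had no read in any library. For Ptger2 and Ptger3, other receptors of prostaglandin E2, no read was seen in the labeled samples, and 2 and 1 reads in unlabeled sample 1. Ptger1, the remaining receptor of prostaglandin E2, had reads in every library, at 2.54, 5.02 and 1.98 CPM in labeled and 1.63 and 1.00 CPM in unlabeled samples. Ptgfr, the receptor of prostaglandin F2α, had at most 3.35 CPM. The prostacyclin receptor Ptgir was at 52.0, 23.4 and 31.6 against 93.3 and 34.1 CPM, and the thromboxane receptor Tbxa2r at 15.2, 28.5 and 25.7 against 8.14 and 18.1 CPM. Both overlapped between groups, and neither passed edgeR's test (adjusted p = 0.985 and 0.961). The pathway genes with deep intervals were Acsl4, which activates arachidonic acid for storage in phospholipids, Anxa1, an annexin known to restrain phospholipase A2, and Hsp90ab1, the chaperone that Ptges3 assists. Acsl4 was at 106 ± 13.5 CPM (SD, n = 3) with a rate of 0.0408 ± 0.00584, Anxa1 at 909.8 ± 107 CPM with 0.0447 ± 0.00178 and Hsp90ab1 at 478.7 ± 29.9 CPM with 0.0389 ± 0.00162. Their log2 fold changes were −0.08, −0.22 and 0.31, and none passed edgeR's test (adjusted p = 1.00 for each).

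The patterns most like Ptgs2 across the 5 libraries were sought among 2107 genes with deep intervals, by the root mean square difference of log2 CPM centered on each gene's mean. Fst, the activin antagonist follistatin, had rank 2 at 0.95 and Inhba, an activin subunit, rank 3 at 0.97. Fst was at 799.5, 376.6 and 316.2 CPM in labeled samples 1, 2 and 3 and at 252.8 and 121 CPM in the unlabeled ones. Inhba was at 828.7, 429.3 and 415 CPM against 282 and 154.6 CPM. Both were highest in labeled sample 1, as was Ptgs2, and neither passed edgeR's test (log2 fold change 1.49, adjusted p = 0.725, and 1.43, adjusted p = 0.626). For Ptgs1, the genes most alike were Asb5, Slc35b1 and Rpl27a, at 0.15, 0.16 and 0.17. Of these, the ribosomal protein transcript Rpl27a had a rate of 0.0273 ± 0.00275 (SD, n = 3), near the 0.0283 of Ptgs1, and Asb5 had 0.0578 ± 0.00461.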

How the data were processed

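The authors moved the unique molecular identifiers into read headers, mapped the 3′ end reads to mm39 (SLAM-DUNK 0.4.3), deduplicated them (UMI-tools) and deposited, per 3′ UTR interval and library, read counts, counts of covered T positions and of T>C conversions. The deposited conversion rate is a fraction, conversions per covered T. The deposited CPM divides reads by a library total that is 7.58 to 28.9 times the reads counted on 1 interval per gene, so CPM was recomputed here on the counted reads. GRCm39 gave the same T content for each of the 40380 intervals that lie on its chromosomes, the remaining intervals were not checked, and GENCODE M39 supplied gene identifiers, exons and overlaps.

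T>C rates were compared by a two-sided beta-binomial likelihood-ratio test on intervals with a minimum of 1 covered T in each library, called at an unadjusted p below 0.05. Reads, on 1 interval for each gene, entered the quasi-likelihood test of edgeR (TMM, filterByExpr, Benjamini-Hochberg). Both were tested on simulated data. Alternatives were DESeq2, limma on log odds (pseudocount 0.5), other scalings, filters and intervals, a replicate block and each library left out. Software comprised Python 3.11.15 (pandas 2.3.3, numpy 2.4.6, numba 0.67.0, scipy 1.17.1, matplotlib 3.10.9) and R 4.3.3 (DESeq2 1.42.0, limma 3.58.1, edgeR 4.0.16).

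Members, pathway lists and marker lists were chosen with earlier results of these data known. Named genes were the 7 members, pathway genes with 1000 or more covered T positions in each library, and the 3 genes most alike in pattern to Ptgs2 and to Ptgs1, of which 1 is not reported here. Ptges2, the receptors of the pathway list and the marker genes with values were named after their values were seen. Intervals of similar length differ from a member by a ratio of no less than 0.8, taken shorter over longer. Counted reads (506045 to 1843033 per library) set the precision, and intervals and limits for 0 cover counting error only.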

Additional observations from a re-analysis of the deposited data

How the results depend on the processing

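The members kept their direction in all of the alternatives run, for reads and for T>C rates. The T>C call of each member stayed in all 72 member results, and 80 of 83 results for reads kept their side of the threshold. The exceptions were Ptgs2 in DESeq2 (log2 fold change 3.24, adjusted p = 0.00102) and, with the replicate block in edgeR, Ptgs2 (3.42, adjusted p = 3.26e-27) and Ptger4 (0.58, adjusted p = 0.0188), which all passed. In the block fit labeled sample 3 has no partner, so the fold changes rest on the samples numbered 1 and 2. Few degrees of freedom remain, so its p-values lean on variation estimated over all genes and do not reflect many replicates. DESeq2 gave no adjusted p for Ptges. DESeq2 called 13 genes higher and 7 lower, and the replicate block 528 higher and 618 lower, where edgeR without it called 0 and 0. Deviations from the group mean correlated at 0.779 between samples numbered 1 and at 0.630 between those numbered 2, and labeled sample 3 correlated at 0.474 with unlabeled sample 2. The deviations of the 2 unlabeled samples mirror each other, so these values are not independent. Labeled sample 1, for example, correlated at −0.779 with unlabeled sample 2. The samples numbered 1 were also the deepest of each group. The correlations therefore cannot tell whether a number marks a shared preparation, and no source used here says so. Intervals higher in T>C rate numbered 18200, and 3154 with a minimum of 1000 covered T positions and 10641 with 1 interval per gene, because fewer were tested. limma on the log odds called 1 interval lower, and 2 with the replicate block, where the beta-binomial test called 0. Without any 1 library, 17056 to 18632 were higher and 0 lower.

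For Ptgs2 against Ptgs1, the difference in T>C rate of 0.0397 became 0.447 as a difference in the share of reads with a conversion, which is another quantity, and lay between 0.0371 and 0.0444 with 1 labeled sample left out. The log2 ratio of levels, 1.09, became −0.31 per kilobase of the interval and 0.093 with reads summed over intervals, where the same Ptgs1 reads enter 2 times, and lay between 0.76 and 1.38 with 1 labeled sample left out. Depth limits Ptges (5–18 reads per library) and Ptgs2 in unlabeled sample 2 (4 reads).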
